A study of Mus musculus with 6 samples.

Results

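The Hippo pathway was followed at the level of mRNA through 10 genes in CT26.mMR1 mouse colorectal tumor cells and in M8, a mutant of these cells. The genes were chosen by name, for their place in the pathway, but with earlier results of these data known. They are 7 genes commonly read as targets or feedback regulators of the pathway (Ctgf, Cyr61, Ankrd1, Axl, Amotl2, Lats2 and Ajuba), the coactivators Yap1 and Wwtr1, and the transcription factor Tead1. All 10 were found among the 24346 gene symbols, under the symbols Ctgf and Cyr61 for the genes now called Ccn2 and Ccn1. All 10 also passed the filter on low values, a mean of at least 1 FPKM over the 6 samples, which left 10597 genes for testing. FPKM counts fragments per kilobase of transcript and per 1e6 mapped fragments, so levels can be set side by side between genes.

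The study compared the lines to find genes whose expression differs in a mutant with altered surface MR1, the molecule that presents metabolites to MAIT cells. The paper reports that this mutant also raised the signal of MAIT reporter cells in its screen. Both groups are CT26, a mouse colorectal tumor line labelled as colon, and both carry mouse MR1 introduced with a retrovirus. The parental group holds 3 samples of CT26.mMR1, and the M8 group holds 3 samples of a single line obtained after treatment of the same cells with the mutagen ENU (N-ethyl-N-nitrosourea), isolation of single-cell clones and screening for surface MR1. M8 is therefore 1 clone, and the effect of an induced mutation cannot be told apart from other ways in which a clone can differ from the parental cells. The titles of both groups carry the term cl9, which the sources used here do not explain, so whether the parental cells are a clone as well is not known here. The samples are described as biological replicates, but the labels do not say whether they were separate cultures, so p-values measure only the spread between these samples. The density of the cultures at harvest is not given in the sources used here.

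In the Hippo pathway, the kinases MST1 and MST2 with the adaptor SAV1 activate the kinases LATS1 and LATS2, which phosphorylate YAP and TAZ (the products of Yap1 and Wwtr1) and keep them out of the nucleus. YAP and TAZ that reach the nucleus bind TEAD factors on DNA and switch on target genes, among them secreted matrix proteins and genes of the pathway itself, which feed back on it. In cultured cells the pathway is known to respond to cell density, attachment and actin tension, and much of this control acts on YAP and TAZ protein rather than on their mRNA.

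TEAD factors bind the sequence CATTCC, or GGAATG when read on the opposite strand. The promoter windows of the genes, from 250 bases before to 50 bases after each start site, were taken from RefSeq (GRCm38.p6) and searched for these letters on both strands, which are the reverse complement of each other. Windows were found for 8 of the 10 genes. Ctgf and Tead1 are named only. All 8 genes held the motif in the whole window (100%), against 16.6% of 27025 genes in the RefSeq table and 14.0% of the 8167 tested genes that matched it by symbol. Within the 250 bases before the start site, 7 of 8 genes held it (87.5%), against 14.4% and 12.4% of genes. Lats2 held it only after a start site, and the window of its other start site (chr14:57734369-57734668) held none. The genes were chosen for their place in the pathway, so these shares are descriptions and not tests. A match is a run of letters and not a measured binding site.

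The full 250 bases before the start site are shown for Cyr61, the only one of the 10 genes that was lower in M8, for Ajuba, the gene with the largest difference, and for Axl, the most abundant of the 10. All are written 5′ to 3′ on the strand of the gene, with the motif in capitals. The Cyr61 window is chr3:145649986-145650235 on the minus strand, with the motif starting at base -103 counted back from the start site. The Ajuba window is chr14:54577662-54577911 on the minus strand, with 2 motifs at -186 and -164. The Axl window is chr7:25788734-25788983 on the minus strand, with the motif at -233.
Cyr61: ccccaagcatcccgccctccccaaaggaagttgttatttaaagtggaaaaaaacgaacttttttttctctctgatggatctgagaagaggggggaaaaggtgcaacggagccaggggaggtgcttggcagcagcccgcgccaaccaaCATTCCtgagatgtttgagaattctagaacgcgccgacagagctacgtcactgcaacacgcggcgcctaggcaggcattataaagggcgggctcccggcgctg
Ajuba: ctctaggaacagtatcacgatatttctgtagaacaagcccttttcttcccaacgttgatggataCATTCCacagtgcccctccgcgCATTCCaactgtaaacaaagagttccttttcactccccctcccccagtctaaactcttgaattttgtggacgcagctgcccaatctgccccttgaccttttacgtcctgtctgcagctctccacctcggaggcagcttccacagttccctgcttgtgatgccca
Axl: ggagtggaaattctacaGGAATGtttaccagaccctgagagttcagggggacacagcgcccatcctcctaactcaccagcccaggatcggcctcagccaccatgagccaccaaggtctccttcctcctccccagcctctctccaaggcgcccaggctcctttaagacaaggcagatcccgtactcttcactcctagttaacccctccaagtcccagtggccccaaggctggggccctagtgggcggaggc

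For 4 other genes only the 6 bases of the motif and 12 bases on each side are shown, so that the surroundings of the matches can be compared. The Ankrd1 sites lie at -210 (chr19:36120037-36120066) and -123 (chr19:36119950-36119979) on the minus strand, and the Amotl2 site lies at -65 (chr9:102717727-102717756) on the plus strand. In the GENCODE M21 annotation, which has start sites further upstream for these 2 genes, an exon of 1 Ankrd1 transcript covers both Ankrd1 sites and an exon of 2 Amotl2 transcripts covers the Amotl2 site. The Yap1 site lies at -141 (chr9:8004720-8004749) and the Wwtr1 site at -136 (chr3:57576029-57576058), both on the minus strand. The motif was thus present before genes that differed between the lines and before genes that did not pass the test.
Ankrd1, first site: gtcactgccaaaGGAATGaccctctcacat
Ankrd1, second site: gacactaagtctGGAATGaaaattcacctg
Amotl2: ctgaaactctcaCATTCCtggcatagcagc
Yap1: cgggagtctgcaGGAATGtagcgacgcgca
Wwtr1: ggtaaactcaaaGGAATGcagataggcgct

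Of the 10 genes, 5 rose in M8 (Ctgf, Ankrd1, Axl, Amotl2 and Ajuba), 1 fell (Cyr61), and 4 did not pass the test (Lats2, Yap1, Wwtr1 and Tead1). The test was limma on log2(FPKM + 1), with calls at a Benjamini-Hochberg adjusted p below 0.1. Among all genes tested, 21.2% were called higher in M8 and 16.5% lower, so the 5 of 10 (50%) and 1 of 10 (10%) stand against a background in which many genes differed. The 10 genes were chosen with earlier results of these data known, so these shares are descriptions and not a test of the group. For 6 of the 10 genes (60%, against 24.8% of genes tested) the lowest M8 sample was above the highest parental sample, and for 1 (10%, against 20.4%) the highest M8 sample was below the lowest parental sample. On the log2 scale the median fold change was 0.12 over the 10 genes and 0.0069 over all genes tested. The differences were small, and no member reached a 1.5-fold change, which 1.09% of the genes tested did in either direction with an adjusted p below 0.1. The split of all calls moved with the scaling, from 2250 higher and 1745 lower in FPKM to 1658 and 2209 in TPM and 1470 and 2769 with upper-quartile scaling.

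**Figure D1:**
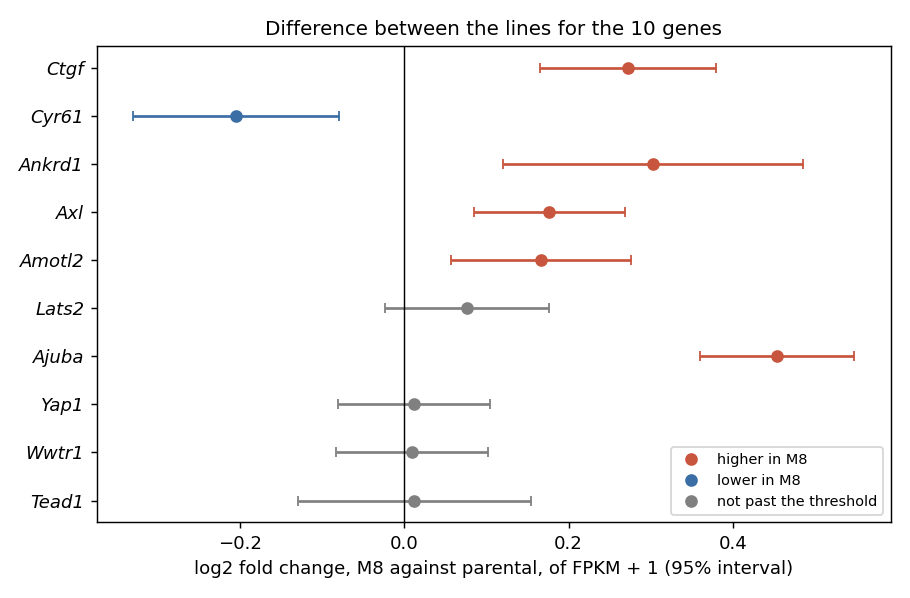
Log2 fold change of FPKM + 1 in M8 against parental cells (horizontal axis) for each of the 10 genes (vertical axis), with the 95% interval from limma as a bar. Ajuba stands furthest to the right at 0.45, Cyr61 is the only gene on the left with an interval that does not reach 0, and the intervals of Lats2, Yap1, Wwtr1 and Tead1 include 0.

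Ctgf and Cyr61, which encode the secreted matrix-associated proteins CCN2 and CCN1 and are the most widely used readouts of YAP and TAZ, differed in opposite directions. Ctgf (chr10:24595442-24598683, plus strand, GRCm38) had 14.0, 14.1 and 13.5 FPKM in the parental samples and 16.5, 17.4 and 16.8 FPKM in M8. Its values did not overlap between the lines, and its mean rose from 13.8 ± 0.309 to 16.9 ± 0.477 FPKM (SD, n = 3 samples each), a log2 fold change of 0.27 (SE 0.048, limma adjusted p = 0.00355). Cyr61 (chr3:145646976-145649981, minus strand), whose promoter is printed above, had 73.8, 65.0 and 71.6 FPKM in the parental samples and 57.6, 63.0 and 61.3 FPKM in M8. All M8 values lay below the parental ones, although the highest M8 value (63.0) came close to the lowest parental value (65.0). The mean fell from 70.1 ± 4.57 to 60.7 ± 2.75 FPKM (SD, n = 3 samples each), a log2 fold change of -0.21 (SE 0.056, limma adjusted p = 0.0234).

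Ctgf was the least abundant of the 10 genes and Cyr61 the most abundant after Axl, so their relation was also read within each sample. There were 5.28, 4.62 and 5.30 FPKM of Cyr61 for each FPKM of Ctgf in the parental samples and 3.49, 3.61 and 3.64 in M8. The ratio was lower in every M8 sample than in every parental sample, with means of 5.07 ± 0.391 and 3.58 ± 0.0776 (SD, n = 3 samples each) and a difference of -0.50 on the log2 scale. This pair was chosen after its values had been seen, and the opposite directions of its genes fix the separation of the lines, so no test is given. A ratio within a sample does not change when all values of the sample are multiplied by 1 factor, but it can change with quantile normalization. In the annotation, Ctgf overlaps Gm15270 on the opposite strand. The libraries were stranded, but the strand setting used for quantification is not given in the sources used here.

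Ankrd1 (chr19:36111961-36120099, minus strand) encodes a nuclear ankyrin repeat protein, also known as CARP, and is a further standard readout of YAP and TAZ. It had 41.2, 47.6 and 52.9 FPKM in the parental samples and 59.3, 60.7 and 54.8 FPKM in M8. The lines did not overlap, but the parental samples were spread widely, with a coefficient of variation of 12.4%, the largest among the 10 genes in either line. The mean rose from 47.2 ± 5.87 to 58.3 ± 3.11 FPKM (SD, n = 3 samples each), a log2 fold change of 0.30 (SE 0.081, limma adjusted p = 0.0221). Without parental replicate 1, the lowest sample, the log2 fold change was 0.21 and still passed (limma adjusted p = 0.0384). Set against Cyr61 in the same sample, Ankrd1 went from 0.558, 0.732 and 0.739 of the Cyr61 level in the parental samples to 1.03, 0.964 and 0.894 in M8. This pair too was chosen after its values had been seen, and the opposite directions of its genes fix the separation of the lines, so no test is given. Thus Cyr61 was above Ankrd1 in all 3 parental samples, while their ranges met in M8.

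Axl (chr7:25757273-25788705, minus strand) encodes a receptor tyrosine kinase for GAS6 and was the most abundant of the 10 genes. It had 182, 188 and 196 FPKM in the parental samples and 217, 213 and 209 FPKM in M8. Every M8 sample was above every parental sample, and the mean rose from 188 ± 7.14 to 213 ± 4.11 FPKM (SD, n = 3 samples each), a log2 fold change of 0.18 (SE 0.041, limma adjusted p = 0.0120). The call was lost with quantile normalization, where the log2 fold change was 0.072 (limma adjusted p = 0.130).

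Amotl2 and Ajuba encode scaffold proteins that act on the pathway and are also transcribed in response to it. AMOTL2 is an angiomotin that binds YAP and promotes its phosphorylation by LATS, and Ajuba is a LIM domain protein that binds LATS kinases and restrains them. Ajuba (chr14:54567472-54577558, minus strand) had 34.3, 33.2 and 32.4 FPKM in the parental samples and 46.7, 46.0 and 45.1 FPKM in M8. The lines were far apart relative to the spread within each, which was below 1 FPKM (SD) in both. Its mean rose by 38.1%, from 33.3 ± 0.993 to 46.0 ± 0.789 FPKM (SD, n = 3 samples each), a log2 fold change of 0.45 (SE 0.042, limma adjusted p = 0.000233). This absolute log2 fold change was larger than that of 96.8% of the genes tested.

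Amotl2 (chr9:102716672-102733418, plus strand) had 24.5, 26.6 and 25.9 FPKM in the parental samples and 28.0, 30.0 and 28.9 FPKM in M8. The lines did not overlap, and the gap between them was narrower than the range of the samples within either line. The mean rose from 25.7 ± 1.07 to 29.0 ± 1.004 FPKM (SD, n = 3 samples each), a log2 fold change of 0.17 (SE 0.049, limma adjusted p = 0.0317). The call was lost with upper-quartile scaling (log2 fold change 0.11, limma adjusted p = 0.123) and without M8 replicate 2 (log2 fold change 0.14, limma adjusted p = 0.116).

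Lats2, one of the kinases that phosphorylate YAP and TAZ and itself a known target, had 19.5, 18.9 and 18.6 FPKM in the parental samples and 19.8, 20.1 and 20.4 FPKM in M8. The M8 values were all above the parental values, by as little as the step from 19.5 to 19.8. The means were 19.0 ± 0.484 and 20.1 ± 0.258 FPKM (SD, n = 3 samples each), and the log2 fold change of 0.077 (95% interval -0.023 to 0.18) did not pass the test (limma adjusted p = 0.225). Lats2 (chr14:57689662-57758388, minus strand) shares its locus with Gm49361, annotated as protein coding on the same strand, so reads of the pair may have been divided between them.

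**Figure D2:**
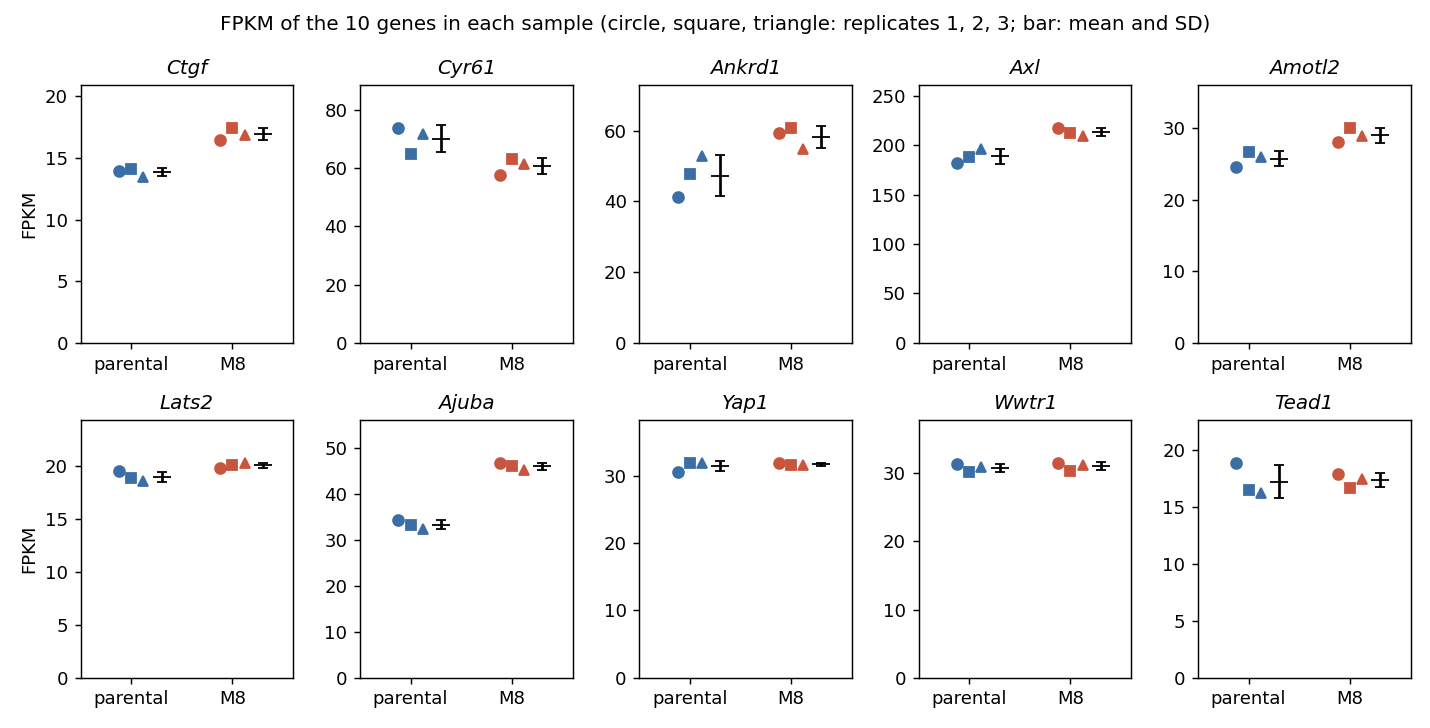
FPKM (vertical axis of each panel, starting at 0) of the 10 genes in the 3 parental and 3 M8 samples, with circles, squares and triangles for replicates 1, 2 and 3 and a bar for the mean and SD of each line. The groups are apart for Ctgf, Cyr61, Ankrd1, Axl, Amotl2, Lats2 and Ajuba, with the M8 samples of Ajuba at 45.1 to 46.7 against 32.4 to 34.3 in parental cells, and they overlap for Yap1, Wwtr1 and Tead1.

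The coactivators and Tead1 had nearly equal mRNA levels in the lines. Yap1 (chr9:7931999-8004596, minus strand) had 30.5, 31.8 and 31.9 FPKM in the parental samples and 31.9, 31.5 and 31.6 FPKM in M8. Wwtr1, which encodes TAZ (chr3:57455649-57575910, minus strand), had 31.4, 30.2 and 30.9 FPKM in the parental samples and 31.6, 30.4 and 31.2 FPKM in M8. For both genes the values of the lines were interleaved. The log2 fold change was 0.012 for Yap1 (95% interval -0.081 to 0.10, limma adjusted p = 0.855) and 0.0094 for Wwtr1 (95% interval -0.084 to 0.10, limma adjusted p = 0.884). Both intervals thus include a rise of up to 0.10 and a fall of up to 0.08 on the log2 scale.

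Yap1 and Wwtr1 were also close to each other. The means were 31.4 ± 0.781 FPKM for Yap1 and 30.8 ± 0.580 FPKM for Wwtr1 in parental cells and 31.7 ± 0.192 and 31.0 ± 0.590 FPKM in M8 (SD, n = 3 samples each). Within samples the mean ratio of Yap1 to Wwtr1 was 1.02 in both lines, given as a description with no test.

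Tead1 (chr7:112679318-112906807, plus strand), a DNA-binding partner of YAP and TAZ, had 18.9, 16.5 and 16.3 FPKM in the parental samples and 17.9, 16.7 and 17.4 FPKM in M8. Parental replicate 1 stood above the other 5 samples, and all M8 values lay within the parental range. The log2 fold change was 0.012 (95% interval -0.13 to 0.15, limma adjusted p = 0.902), an interval wider than those of Yap1 and Wwtr1. The absolute log2 fold changes of these 3 genes were larger than those of 4.08% to 5.35% of the genes tested, that is, among the smallest.

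Per length, the order of the levels was the same in the lines, from Axl over Cyr61, Ankrd1, Ajuba, Yap1, Wwtr1, Amotl2, Lats2 and Tead1 to Ctgf. In parental cells the ranges over samples of neighbours in this order overlapped for Yap1 and Wwtr1 and for Lats2 and Tead1. In M8 they overlapped for Cyr61 and Ankrd1, for Yap1 and Wwtr1, and for Tead1 and Ctgf. No replicate was high or low throughout. Parental replicate 1 was the highest parental sample for 5 genes and the lowest for 4, and M8 replicate 1 was the highest M8 sample for 5 genes and the lowest for 4.

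The genes whose values followed Ctgf and Cyr61 most closely over the 6 samples were sought among the other 10596 genes tested, by the Euclidean distance between log2(FPKM + 1) profiles that were each centred on their mean. For Ctgf these were 2310011J03Rik (distance 0.0378), Ndufs8, a subunit of respiratory complex I (0.0469), and Kansl1l (0.0490). A flat profile lay at 0.340 from Ctgf, which is given for scale only, since the genes were selected for a small distance. For Cyr61 they were the orphan nuclear receptor Nr6a1 (0.0606), Lrp12 (0.0638) and the phospholipase Pld2 (0.0652), against 0.299 for a flat profile. These distances rest on 6 samples and were not tested.

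Other genes of a published pan-cancer signature of YAP and TAZ targets were read as a second list of 16 genes, none of them among the 10. Of these, 10 were tested, and 2 rose, 1 fell and 7 did not pass, which is 20% higher and 10% lower against 21.2% and 16.5% of all genes tested. Asap1, a GTPase-activating protein for ARF, had a log2 fold change of 0.23 (limma adjusted p = 0.00778), and the membrane repair protein Myof had 0.18 (limma adjusted p = 0.0123). F3, the tissue factor that starts blood coagulation, fell from 25.5 ± 0.366 to 21.8 ± 1.63 FPKM (SD, n = 3 samples each), a log2 fold change of -0.22 (limma adjusted p = 0.0184). The median log2 fold change over this list was 0.056. Below the filter were Nt5e, Tgfb2 and Rbms3, and Igfbp3, Fjx1 and Foxf2 were listed at 0 in all 6 samples.

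Among 27 other genes of the pathway itself, 21 were tested, and 4 rose and 3 fell (19.0% and 14.3%, against 21.2% and 16.5% of all genes tested), with a median log2 fold change of -0.023. Of 10 kinases and their adaptors, 2 rose (20%, near the 21.2% of all genes) and none fell. Map4k4, a kinase that can activate LATS in parallel to MST, rose from 40.9 ± 1.28 to 46.9 ± 0.755 FPKM, a log2 fold change of 0.20 (limma adjusted p = 0.00829). Sav1, the adaptor of the MST kinases, rose from 39.0 ± 1.28 to 43.3 ± 1.57 FPKM, a log2 fold change of 0.15 (limma adjusted p = 0.0393). The MST kinase genes Stk3 and Stk4 had log2 fold changes of 0.093 and 0.080 and Lats1 had 0.11, and none of these passed.

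Among 7 tested upstream regulators, 2 rose and 2 fell (28.6% each, against 21.2% and 16.5% of all genes tested). Wwc2, a relative of the LATS activator KIBRA, rose from 32.3 ± 0.525 to 41.6 ± 1.04 FPKM, a log2 fold change of 0.36 (limma adjusted p = 0.000644). The angiomotins did not move together: Amot had a log2 fold change of 0.35 (limma adjusted p = 0.0273) and Amotl2 of 0.17, as given above, while Amotl1 had -0.15 (limma adjusted p = 0.0280). Amotl1 was the most abundant of them, at 46.3 ± 1.43 FPKM in the parental line and 41.7 ± 0.970 in M8. The FERM protein gene Frmd6 had a log2 fold change of -0.13 (limma adjusted p = 0.0871), with values that overlapped between the lines. Nf2, which encodes Merlin, had -0.064 and did not pass.

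Tead1 was not the main TEAD gene of these cells. Tead2 was the most abundant, with 75.02 ± 3.18 FPKM in the parental line and 68.4 ± 1.90 in M8 (SD, n = 3 samples each), and it fell, with a log2 fold change of -0.13 (limma adjusted p = 0.0536). Tead3 had 26.5 ± 1.85 and 28.1 ± 1.203 FPKM and Tead4 9.49 ± 0.904 and 9.12 ± 0.105 FPKM, and neither passed. Vgll4, a cofactor that competes with YAP for TEAD, had 11.003 ± 1.41 and 9.40 ± 0.934 FPKM, a log2 fold change of -0.20 that did not pass (limma adjusted p = 0.139). Below the filter were Fat4, Dchs1 and Vgll3, and Wtip, Vgll1 and Vgll2 were listed at 0 in all 6 samples.

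**Figure D3:**
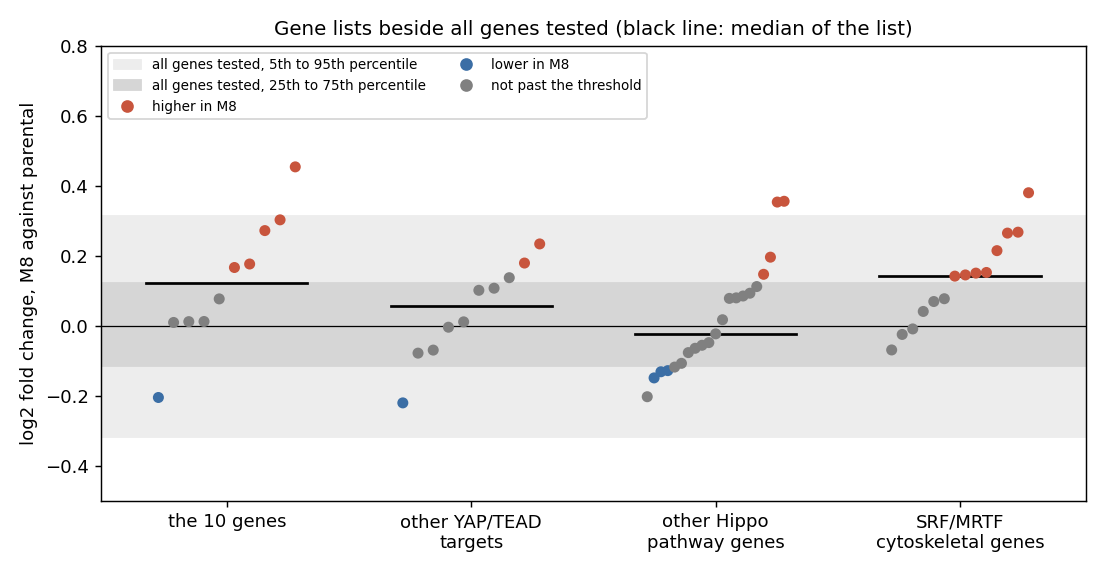
Log2 fold change in M8 against parental cells (vertical axis) of each tested gene in 4 lists (horizontal axis), with a black line at the median of the list and grey bands for the middle of all 10597 genes tested. The medians are 0.12 for the 10 genes, 0.056 for the other targets, -0.023 for the other pathway genes and 0.14 for the cytoskeletal genes.

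Ctgf, Cyr61 and Ankrd1 are also known to respond to SRF with its MRTF cofactors, which read the actin pool, so 18 genes of that system were read beside them. Of these, 14 were tested, and 8 rose (57.1%), none fell and 6 did not pass, against 21.2% of all genes tested that were higher and 16.5% that were lower. Their median log2 fold change was 0.14. This list too was chosen with earlier results of these data known, so its share is a description and not a test. Tpm1, a tropomyosin, rose from 226.7 ± 9.83 to 295 ± 6.84 FPKM (SD, n = 3 samples each), a log2 fold change of 0.38 (limma adjusted p = 0.000577). The actin crosslinkers Actn1 and Flna had log2 fold changes of 0.26 and 0.21 (limma adjusted p = 0.0216 and 0.00814), Tagln2 had 0.27 (limma adjusted p = 0.0235), and Cnn2, Actg1, Myh9 and Actb had 0.14 to 0.15. Srf and the MRTF genes Mkl1 and Mkl2 had 0.077, -0.0091 and 0.041 and did not pass. The smooth muscle genes Acta2, Tagln, Cnn1 and Myl9 were below the filter.

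Parental replicate 1 was the lowest parental sample for Ankrd1 and also for Actn1, at 67.2 against 79.9 and 82.9 FPKM, and for Tagln2, at 214 against 260 and 265 FPKM. Without this replicate 5 of the 14 cytoskeletal genes were called higher. The count was also 5 without M8 replicate 3 and 4 without M8 replicate 1, and it was 4 with quantile normalization or upper-quartile scaling. The part of this sample in the differences of Ankrd1 and the cytoskeletal genes beyond these values was not tested.

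Marker genes were read to check the tissue label and the makeup of the samples. Of 9 markers of colon epithelium, Epcam, Cdh1, Krt19 and Cdx2 were listed at 0 in all 6 samples, and Krt8 and Vil1 were below the filter. The others had signal: Krt18 had 32.5 ± 6.97 FPKM in the parental line and 36.4 ± 1.85 in M8, and Krt20 had 17.4 ± 2.36 and 11.9 ± 0.979 (SD, n = 3 samples each). The colon label was thus met by some epithelial markers and not by others, and a listed 0 in a table without counts does not show absence. The summed level of the 9 was 41.8 to 57.7 FPKM over the parental samples and 48.1 to 50.1 over the M8 samples. Within it Krt20 fell, with a log2 fold change of -0.50 (limma adjusted p = 0.00438). Lgals4 was low in both lines, at 1.68 ± 0.438 FPKM in the parental line and 0.680 ± 0.106 in M8 (SD, n = 3 samples each). It passed the filter on low values only through its parental samples, so no test is given for it. The 7 markers of fibroblasts and mesenchyme summed to 2365 to 2776 FPKM over the parental samples and 2569.9 to 2665 over the M8 samples, mostly from Vim. Pdgfrb rose (0.25) and Pdgfra and Dcn fell (-0.43 and -0.38 on the log2 scale). The 4 endothelial and 5 leukocyte markers summed to at most 0.0853 and 0.286 FPKM in any sample, so they were near 0. In bulk samples, fewer cells of a kind and less RNA per cell cannot be told apart, and the part of the epithelial and mesenchymal markers in the differences above was not tested.

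The differences of the 10 genes held their sign or stayed near 0 over the other processing choices. Over the 18 alternatives the log2 fold change ran from 0.21 to 0.29 for Ctgf, from -0.28 to -0.17 for Cyr61, from 0.21 to 0.39 for Ankrd1 and from 0.39 to 0.48 for Ajuba, and these 4 genes passed an adjusted p below 0.1 in limma in each of them that did not add a fold change limit. For Axl the range was 0.072 to 0.20 and for Amotl2 0.11 to 0.19. Yap1, Wwtr1 and Tead1 took values on both sides of 0, from -0.050 to 0.077, and Lats2 ran from 0.018 to 0.096, with no call in any alternative for these 4 genes.

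**Figure D4:**
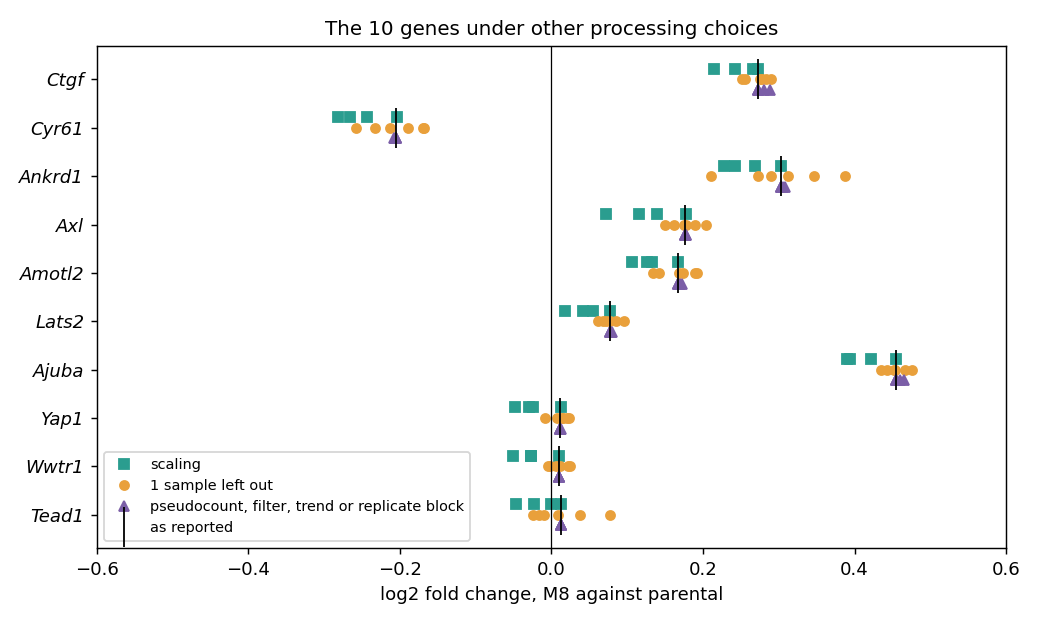
Log2 fold change in M8 against parental cells (horizontal axis) of the 10 genes (vertical axis) under other scalings (squares), with 1 sample left out (circles) and with another pseudocount, filter or fit (triangles), beside the reported value (vertical tick). Ctgf, Ankrd1, Axl, Amotl2 and Ajuba stay to the right of 0 and Cyr61 to the left, with Cyr61 between -0.28 and -0.17.

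The M8 samples were sequenced less deeply, at 0.772 to 0.875 of parental replicate 1, against 0.948 to 1.07 for the other parental samples. These relative depths were estimated from the steps between low FPKM values. The reads behind a value were estimated from the shortest transcript of each gene that matches RefSeq, in the sample with the fewest. For Ctgf, the least abundant of the 10 genes, the estimate was 700 reads in that sample, a counting error of 3.78%. This error does not include the variation between samples, yet it is more than the spread between the Ctgf replicates (2.23% and 2.82%). The estimate may thus understate the reads behind Ctgf. For Lats2 the estimate of 266 reads, made with a transcript of 786 bases, gives a counting error of 6.13%, more than the spread between its replicates (2.55% and 1.29%), so it may understate the reads behind Lats2.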

How the data were processed

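Total RNA of 3 parental CT26.mMR1 and 3 M8 samples was made into stranded mRNA libraries and sequenced as single reads. The authors mapped the reads to mm10 and deposited FPKM values, 1 table per sample. The submitters' processing notes name TopHat2 2.1.1, Bowtie2 2.2.8, SAMtools 0.1.18 and Cuffdiff 2.2.1, and the annotation is not given in the sources used here. Since the deposited FPKM values are not counts, no count model was used.

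Genes with a mean of at least 1 FPKM were tested with the limma package (version 3.58.1, R 4.3.3) on log2(FPKM + 1), that is, with a pseudocount of 1. The fit had a moderated variance with an intensity trend, no covariates and Benjamini-Hochberg adjustment over all 10597 genes. Fold changes are on that scale, which understates changes of low genes. The threshold was an adjusted p below 0.1, the FDR level of the study, without a fold change limit. The study also asked for a fold change above 1, which was read here as a linear ratio and so as no limit on size. An exact permutation test of 3 samples against 3 cannot go below p = 0.1 and so is not given, and ratios are descriptions. Scripts ran in Python 3.11.15. FPKM carries no depth of its own, so relative depth was estimated from genes with a mean below 1 FPKM.

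The 10 genes and all lists were chosen with earlier results of these data known. All 10 are named, as are genes of the other lists past the threshold, the target, pathway and cytoskeletal genes below the filter, and the 3 profiles nearest to Ctgf and to Cyr61; others are named for their role after their values were seen. Other settings tried were a pseudocount of 0.1 or 0.5, either no low-value filter or one at 5 FPKM, TPM, median centring, quantile normalization, upper-quartile scaling, no trend, the replicate number as a block, a threshold of 0.05, a 1.5-fold limit, and each sample left out in turn. Sequences and positions are from RefSeq and GENCODE M21. No sample was left out.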

Additional observations from a re-analysis of the deposited data

How the results depend on the processing

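With a fold change of at least 1.5, the count was 0 in each direction for the 10 genes, the other targets, the other pathway genes and the cytoskeletal genes. Among the 10 genes, 4 instead of 5 were higher without M8 replicate 2, under upper-quartile scaling and under quantile normalization, and Cyr61 was called lower in every alternative except the 1.5-fold limit. The count of other YAP/TEAD targets lower in M8 was 2 instead of 1 with upper-quartile scaling. Other pathway genes lower in M8 numbered 7 instead of 3 with upper-quartile scaling, 1 at an adjusted p below 0.05, and 1 to 3 with a sample left out, with 1 both without parental replicate 2 and without M8 replicate 1. Those higher numbered 2 to 5 instead of 4 with a sample left out, with 2 without M8 replicate 1. Cytoskeletal genes higher in M8 numbered 5 instead of 8 without a filter on low values, 4 with quantile normalization or upper-quartile scaling, and 4 to 8 with a sample left out. Either of these scalings called 1 of these genes lower, instead of 0. The cause was not tested. No call of the 10 genes changed direction. TPM moved the median of all genes by -0.035 and upper-quartile scaling by -0.056.

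The replicate numbers did not pair the samples: deviations of same-numbered samples from their line's mean correlated at 0.10, -0.11 and -0.033. With the replicate block, 5 of the 10 genes were higher and 1 lower, as without it, and over all genes 2171 were higher and 1688 lower, against 2250 and 1745. Leaving out a sample leaves 2 in its line, and groups of 3 are too small to test a sample as an outlier.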
